A study of Mus musculus with 2 samples.

Results

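The genes described here are 39 mouse genes whose human counterparts are linked to autism and other neurodevelopmental disorders, out of 21911 protein-coding genes of the GENCODE vM21 annotation. They are defined by a list of gene names with no threshold on a measured value, and all 39 were found in the annotation. They comprise 23 chromatin regulators, 3 sequence-specific transcription factors, 4 genes of ubiquitin ligases and RNA-binding proteins, and 9 synaptic and signalling genes. The assay was DNase-seq. Nuclei are exposed to the enzyme DNase I and the cut ends are sequenced, so that open DNA stands out by its density of cuts. The series holds 1 group of 2 libraries, both from frontal cortex of 10-day-old male B6CASTF1/J mice, the offspring of a cross between C57BL/6J and CAST. There was no treatment, mutation or other tissue, so the members were compared with each other, between the libraries and with all protein-coding genes. A note on each sample gives 3 males without saying whether they were pooled, and both samples carry 1 donor entry. Separate animals are therefore not stated, and the spread between the replicates may be technical.

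Promoters of active and poised genes lie in nucleosome-depleted DNA that DNase I cuts readily. Enhancers, which can sit far inside introns or between genes, are open in fewer cell types than promoters are. Chromatin regulators such as remodellers, histone-modifying enzymes and their readers act on most genes and are made in most cells, whereas adhesion and synaptic proteins belong mainly to neurons and are often encoded by very long genes. A short stretch within open DNA that is protected from cutting is called a footprint and marks DNA covered by a bound protein. Accessibility does not measure expression, and in whole tissue a site open in few cells and a site weakly open in many cells cannot be told apart.

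Replicate 1 had 39608 peaks in its main list and replicate 2 had 45915, and the second library was 1.64 times as deep as the first, from the step between density values. Cortex markers had an open promoter at 7 of 10 genes, neuronal markers at 10 of 10 and glial markers at 5 of 10. Hindbrain markers had one at 0 of 10, and liver markers at 1 of 10. Over all protein-coding genes the share was 55.1%, so the glial count was close to that of all genes. Here a peak was assigned to a promoter if it came within 1 kb of any transcript start annotated for the gene, and a promoter was called open if it had such a peak in each library. The density of a peak is the authors' depth-normalised signal, and its percentile is its rank among all peaks of the same library. A shared peak is a replicate 1 peak that overlaps a replicate 2 peak by at least 1 bp. Coordinates are on mm10.

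The promoter was open at 37 of the 39 members. Over all protein-coding genes the share was 55.1%. The exceptions were the histone demethylase gene Kdm6b and Gigyf1, a gene of translational repression. A footprint lay in a promoter window in both libraries for 38 members, where 59.6% of all genes had one. A hotspot, a broader region of enriched cutting, lay at a promoter of 38 members in both libraries, against 63.4% of all genes. Gigyf1 was the member without a footprint or hotspot. The members have more annotated starts than most genes, with a median of 9 against 3. A peak at any of them counts and the strongest is ranked, so members had more chances of a promoter peak and of a high percentile. The members are also longer than most genes, with a median span of 106 kb for gene body plus 10 kb upstream against 27.4 kb. Among genes with a span over 200 kb the promoter share was 81.9%, and all 11 members of that length had an open promoter. The members' median promoter percentile was 90.7, the mean of both libraries, and that of all genes with an open promoter was 84.9. Of the 37 members with an open promoter, 23 ranked above that value.

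The promoter sequences below show what such open sites look like at members with strong or unusual promoter peaks. They were read from the C57BL/6J reference genome (GRCm38.p6, RefSeq), in the direction of transcription of the member, and the CAST alleles of these mice can differ from them. None overlaps an annotated exon. In the Dyrk1a, Kmt2c and Dscam peaks the capitals mark footprints found in both libraries. In the other sequences, which are single footprints with 10 bp on each side, the capitals mark matches to the motifs named with them.
Dyrk1a promoter peak, chr16:94569421-94569720, plus strand: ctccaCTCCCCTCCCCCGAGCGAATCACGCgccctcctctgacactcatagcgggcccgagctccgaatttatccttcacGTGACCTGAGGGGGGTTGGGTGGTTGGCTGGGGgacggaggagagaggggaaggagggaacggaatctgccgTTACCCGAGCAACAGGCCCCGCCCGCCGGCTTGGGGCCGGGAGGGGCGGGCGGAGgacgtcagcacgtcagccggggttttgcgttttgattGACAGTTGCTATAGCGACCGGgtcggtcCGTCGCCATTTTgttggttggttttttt
Kmt2c promoter peak, chr5:25499541-25499720, minus strand: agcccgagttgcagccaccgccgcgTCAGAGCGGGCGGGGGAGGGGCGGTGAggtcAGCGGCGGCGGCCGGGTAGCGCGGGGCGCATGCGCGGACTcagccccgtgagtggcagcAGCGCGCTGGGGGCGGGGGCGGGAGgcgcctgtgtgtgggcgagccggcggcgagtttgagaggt
Dscam promoter peak, chr16:97171641-97171860, minus strand: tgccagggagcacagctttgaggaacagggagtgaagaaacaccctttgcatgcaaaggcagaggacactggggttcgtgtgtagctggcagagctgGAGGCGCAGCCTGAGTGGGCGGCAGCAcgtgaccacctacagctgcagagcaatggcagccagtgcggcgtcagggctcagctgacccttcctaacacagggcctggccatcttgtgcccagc
Chd2 footprint with a CRE match, chr7:73537859-73537924, minus strand: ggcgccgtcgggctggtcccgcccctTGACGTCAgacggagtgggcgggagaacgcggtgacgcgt
Chd2 footprint with an SP/KLF match, chr7:73537779-73537830, minus strand: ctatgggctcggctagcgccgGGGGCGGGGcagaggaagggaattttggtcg
Nf1 footprint with a CRE match, chr11:79339473-79339526, plus strand: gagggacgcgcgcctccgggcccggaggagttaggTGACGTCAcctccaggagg
Hnrnpu footprint with overlapping CRE and ETS matches, chr1:178336539-178336595, minus strand: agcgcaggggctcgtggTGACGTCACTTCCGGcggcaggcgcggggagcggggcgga
The Dyrk1a and Kmt2c peaks hold 5 and 4 shared footprints, and the Dscam peak holds 2 overlapping ones.

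**Figure D1:**
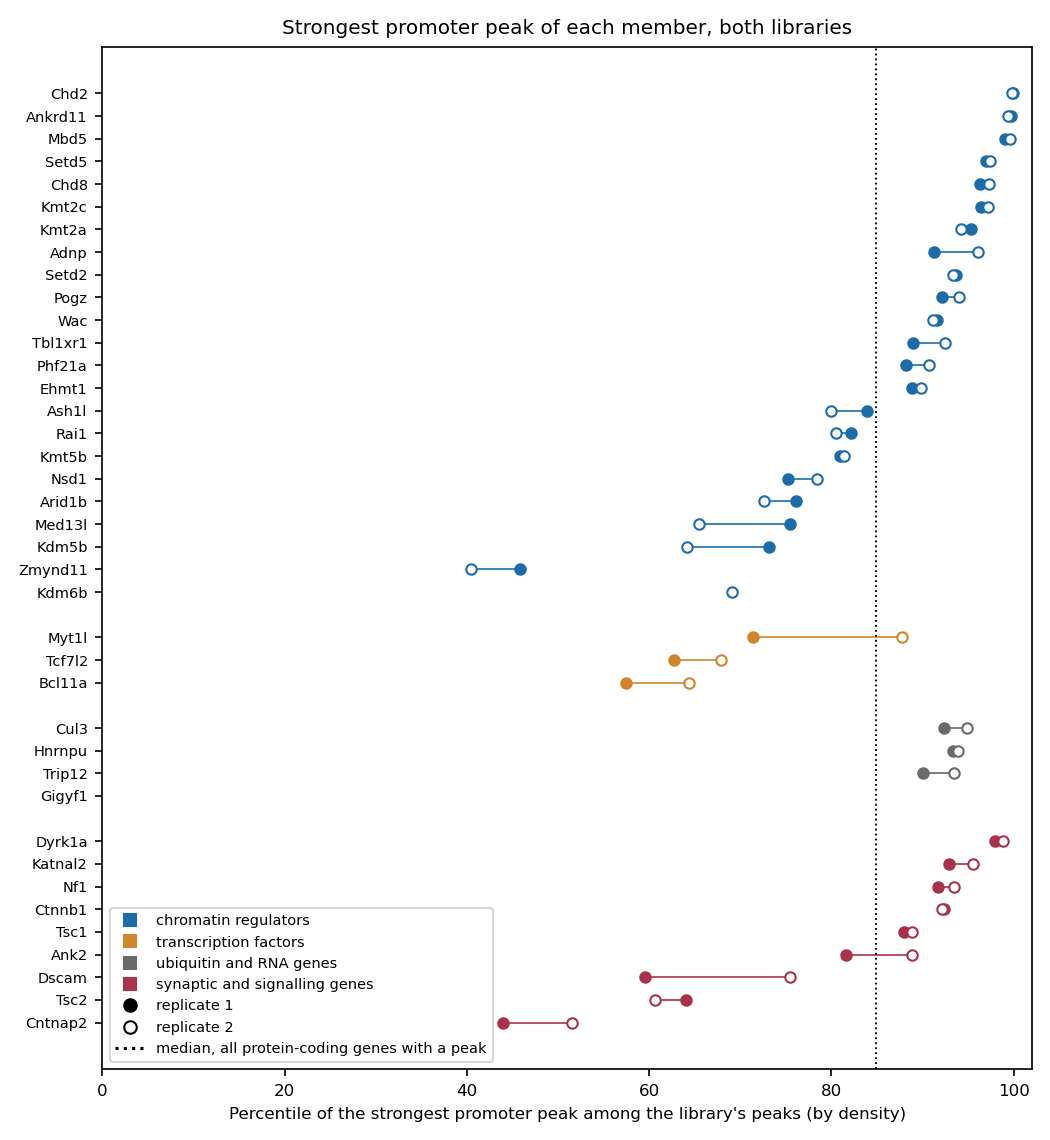
Percentile of the strongest promoter peak of each member in replicate 1 (filled) and replicate 2 (open), ordered within each class by the mean of both libraries; the dotted line is the median of all protein-coding genes with an open promoter, 84.9. Chd2, Ankrd11, Mbd5 and Dyrk1a lie at the right edge in both libraries, Zmynd11 and Cntnap2 lowest, Kdm6b has a value in replicate 2 alone and Gigyf1 has none.

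All 4 remodelling genes had an open promoter. Chd2, which encodes an ATP-dependent nucleosome remodeller, had the strongest promoter peak of all members, with a density of 20.6 in replicate 1 and 14.1 in replicate 2, the 99.9 and 99.8 percentiles. The Chd2 promoter footprints printed above lie in this peak. Chd8, a remodeller of the same family, had strongest densities of 10.0 and 7.20, at the 96.3 and 97.3 percentiles, in different peaks. The peak 13.2 kb inside the gene had 10.0 in replicate 1 and 6.34 in replicate 2. The peak next to the first start had 9.54 and 7.20. Adnp, a homeodomain protein that works with remodellers, followed with 6.63 and 6.26. Arid1b, a subunit of the BAF remodelling complex, had the weakest promoter of the group, at 2.92 and 1.64, although its 2 promoter windows held 25 and 22 footprints.

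The 8 histone methyltransferase genes all had an open promoter, at a median percentile of 91.4. Setd5, which encodes a SET-domain protein, led with densities of 10.8 and 7.31. Kmt2c and Kmt2a, of the MLL family that methylates histones at enhancers and promoters, had 10.1 and 7.14, and 9.07 and 5.08. Setd2, which marks the bodies of transcribed genes, had 7.96 and 4.69. Ehmt1, a writer of a repressive mark, had 5.60 and 3.57. The remaining genes of the group were lower in both libraries. Ash1l had 4.21 and 2.11, and Kmt5b had 3.64 and 2.27. Nsd1 was the weakest of the group, with 2.82 and 1.99. Promoter windows of 4 of the genes also hold a start of another gene. It is 4831440E17Rik for Kmt2c, AC061963.1 for Kmt2a, Gt(ROSA)26Sor for Setd5 and the protein-coding gene Dap3 for Ash1l. Distal shared peaks, which lie over 1 kb from any annotated start of any gene, were found at 1 of these 8 genes, Setd5. Over all genes 20.9% had one, and 37.8% of those with a span of 50 to 200 kb. In a group of 8 genes this difference is no result about the group.

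The 2 histone demethylase genes had weaker promoters. Kdm5b, which removes a mark of active promoters, had densities of 2.62 and 1.32, at the 73.2 and 64.1 percentiles. Its strongest open site lay upstream, at chr1:134556941-134557200, where the densities were 6.26 and 5.06 and the percentiles 90.5 and 94.1. Kdm6b, which removes the repressive mark set by Polycomb proteins, had no promoter peak in replicate 1 and one of density 1.49 in replicate 2. Its span nevertheless held 9 peaks in replicate 1 and 12 in replicate 2, of which 9 replicate 1 peaks were shared. At 3.58 shared peaks per 10 kb it was the most densely covered member. The strongest of them, chr11:69418041-69418260, lay 4.48 kb upstream of the GENCODE start, with densities of 8.08 and 6.20.

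The position of these Kdm6b peaks depends on the annotation. RefSeq lists 10 starts for this gene and places the farthest upstream 6692 bp ahead of the GENCODE start. No peak of the main, looser or read-derived lists lay within 1 kb of that farthest start in either library. Hotspots did lie there, 3 in replicate 1 and 2 in replicate 2. Counted from all its RefSeq starts, Kdm6b had 8 promoter peaks in replicate 1 and 11 in replicate 2. All 8 of its distal shared peaks lay within 1 kb of a RefSeq start. No distal shared peak of the other members did so. The use of RefSeq starts was chosen after these values were seen. Over 20543 genes with a RefSeq start, 56.2% had an open promoter, and among the members the count was again 37. Kdm6b was gained and Chd2 was lost.

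For Chd2 the strong peak, chr7:73537761-73538020, lay 3.94 kb inside the gene from its first GENCODE start. It sat at an internal start, in a window shared with the gene Gm44686. RefSeq lists 1 Chd2 start, 84 bp inside the GENCODE start. No main-list peak lay within 1 kb of it, while the looser lists had weak peaks there, of density 1.13 in replicate 1 and 0.731 in replicate 2. The internal site was thus many times stronger than the annotated gene start in both libraries.

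Gigyf1 had no peak, footprint or hotspot at its GENCODE start, chr5:137518548, in either library. RefSeq starts this gene 8285 bp farther upstream, at chr5:137510263. There the main list had a peak in replicate 2 alone, of density 1.11, which also overlaps the start of the GENCODE gene Gm8066. The looser list had a peak of 1.86 in replicate 1 and 1.14 in replicate 2, and the read-derived lists, made by the authors in a separate run, had 1.95 and 1.36. Hotspots lay there in both libraries, with a highest −log10 FDR of 6.64 and 5.13. So the upstream site was open in both libraries at the looser thresholds, and not shared in the main list. The stretch of the replicate 2 peak ahead of the first annotated exon is shown because it is the only main-list peak near a start of this gene, with replicate 2 footprints in capitals.
Gigyf1 upstream peak, chr5:137510155-137510252, plus strand: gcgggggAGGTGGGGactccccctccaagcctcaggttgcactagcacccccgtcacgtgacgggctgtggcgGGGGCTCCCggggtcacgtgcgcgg

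**Figure D2:**
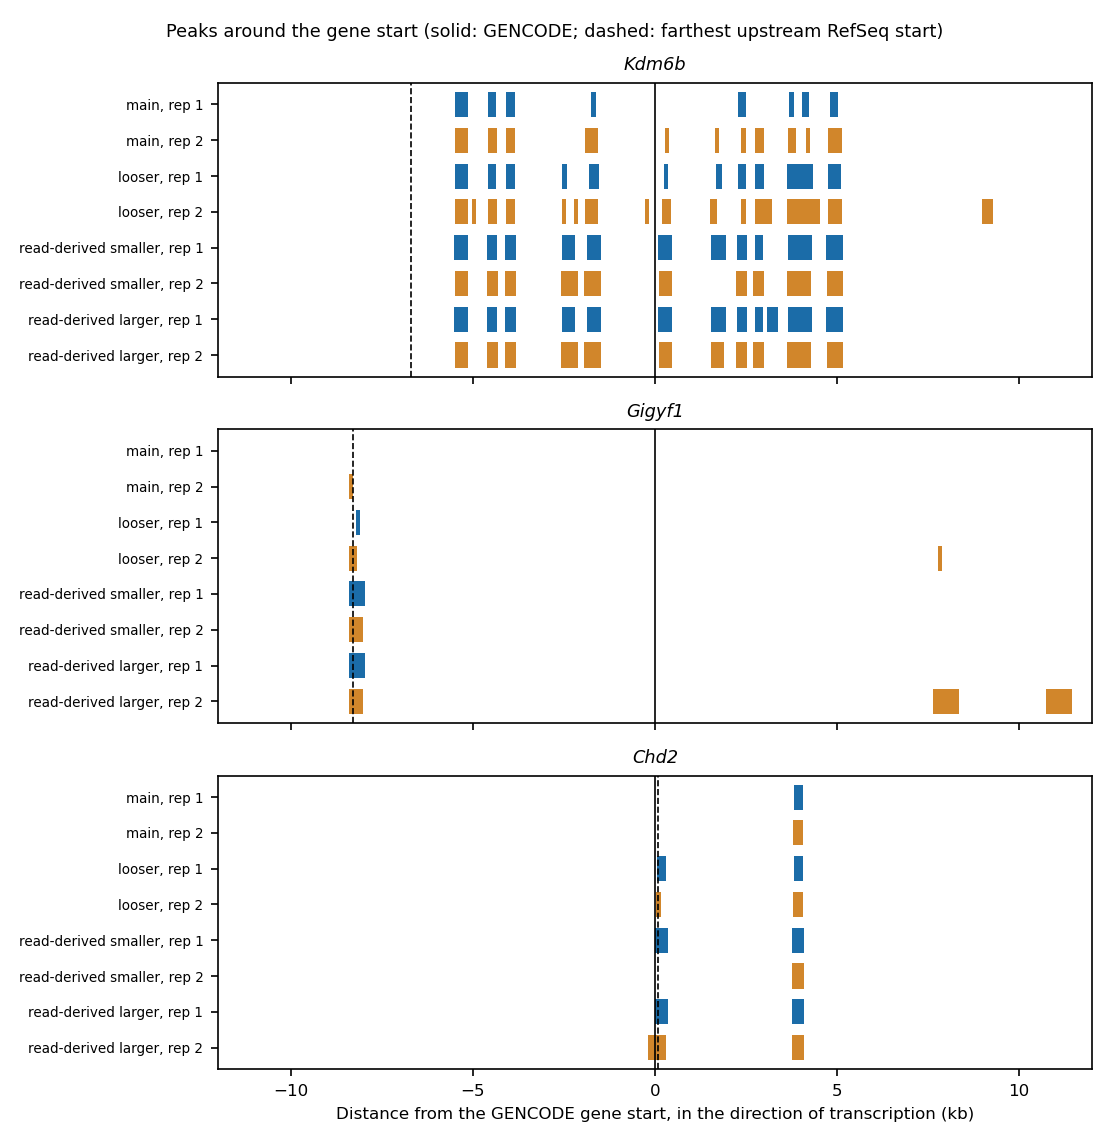
Peaks of 4 deposited lists in each library (replicate 1 blue, replicate 2 orange) around the starts of Kdm6b, Gigyf1 and Chd2; the horizontal axis is the distance in kb from the GENCODE start (solid line), the dashed line is the farthest upstream RefSeq start, and peaks narrower than 0.1 kb are drawn 0.1 kb wide. Kdm6b peaks stand on both sides of the GENCODE start, Gigyf1 peaks gather at the RefSeq start 8285 bp upstream, and the Chd2 peak seen in every list lies 3.94 kb inside the gene.

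The 9 chromatin readers and cofactors spanned mean promoter percentiles from 43.1 to 99.5. Ankrd11, an ankyrin-repeat cofactor of histone deacetylases, had densities of 18.6 and 11.1, at the 99.7 and 99.4 percentiles, in a peak at chr8:123042301-123042580. The peak lies just upstream of the Ankrd11 start and in a window shared with the gene 2810013P06Rik. Mbd5, of the methyl-CpG-binding domain family, followed with 14.7 and 12 in a window shared with Orc4, a gene of the origin recognition complex. Pogz, a zinc-finger protein with a transposase-derived domain, had 7.02 and 5.01. Wac, an adaptor in histone ubiquitination, had 6.77 and 3.96. Tbl1xr1, of the NCoR corepressor complex, had 5.68 and 4.39. These genes stood above the median of all genes in both libraries.

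Phf21a, a reader of unmodified histone tails, had densities of 5.43 and 3.80 in a peak 90.7 kb inside the gene from the first GENCODE start, where no peak was found. The RefSeq starts of Phf21a begin at that internal site. Rai1, a nucleosome-binding regulator, had 3.84 and 2.17, and all 3 of its promoter windows were occupied in both libraries, with 29 and 37 footprints. Med13l, of the Mediator kinase module, had 2.86 and 1.36. Zmynd11, a reader of a mark on transcribed genes, had the lowest mean percentile of all members, with densities of 1.36 and 0.869, while Cntnap2 was lower in replicate 1. In the main lists Zmynd11 had 5 promoter peaks in replicate 1 and 1 in replicate 2, but in the looser lists it had 5 in each. Its promoter footprints numbered 18 and 17.

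All 3 transcription factor genes ranked under the median of all genes by the mean of both libraries. Myt1l, a zinc-finger factor of neurons, had promoter densities of 2.47 and 3.11. Its percentiles of 71.4 and 87.7 differed by 16.3 points, the widest gap between the libraries of any member. Tcf7l2, an effector of Wnt signalling, had 1.93 and 1.45. Bcl11a, a zinc-finger repressor, had 1.71 and 1.33. The strongest peak within 1 kb of a GENCODE start of Bcl11a itself lay 3.29 kb inside the gene in replicate 1. In replicate 2 it lay at the first start. A stronger shared peak, with densities of 2.27 and 1.80, lay upstream. In replicate 1, at chr11:24076161-24076672, it covers the first RefSeq start of Bcl11a and also a GENCODE start of another gene. In replicate 2 it lay 39 bp from such a start.

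Of the 4 ubiquitin ligase and RNA-binding genes, 3 had similar, strong promoters. Cul3, a scaffold of ubiquitin ligases, had densities of 7.17 and 5.51. Hnrnpu, an RNA-binding protein of the nuclear matrix, had 7.71 and 4.96. Trip12, a ubiquitin ligase, had 6.07 and 4.77. Their mean percentiles lay between 91.8 and 93.7. Promoter windows of Trip12 also hold a start of the protein-coding gene Fbxo36, and those of Cul3 a start of Gm37902. None of the 4 had a distal shared peak, where 20.9% of all genes had one, so for 4 genes this absence is no result.

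All 5 signalling genes had an open promoter. Dyrk1a, a protein kinase, led this class with 12.5 and 9.45, the 98.0 and 98.8 percentiles, in the peak printed above. Ctnnb1, which encodes beta-catenin, had 7.17 and 4.23 in a peak 4.17 kb inside the gene, at the RefSeq start. Nf1, which restrains Ras, had 6.78 and 4.78. Tsc1 and Tsc2 encode partners of a complex that restrains mTOR. Tsc1 had 5.35 and 3.35. Tsc2 had 1.99 and 1.23, in a window shared with the DNA repair gene Nthl1. The partners thus differed, with Tsc1 the higher in both libraries.

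The 4 synaptic, adhesion and cytoskeleton genes had a median percentile of 76.4. Katnal2, related to microtubule-severing katanin, was the strongest, with densities of 7.41 and 5.85. Ank2, an ankyrin that ties membrane proteins to the cytoskeleton, had 3.76 and 3.36 in a peak 90.3 kb inside the gene, and 4 of its 11 promoter windows were occupied in both libraries. Dscam, an immunoglobulin-type adhesion molecule, had 1.79 in both libraries, in a peak 889 bp from any annotated start. Cntnap2, of the neurexin family, had 1.32 and 1.04, at the 44.0 and 51.5 percentiles. These are different peaks, 0.404 kb into the gene in replicate 1 and 0.744 kb in replicate 2. Cntnap2 is by far the longest member, with a span of 2255 kb.

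The classes overlapped in promoter strength. The median percentile was 91.1 for the 22 chromatin regulators with an open promoter and 88.4 for the 9 synaptic and signalling genes. The difference was 2.67 points, or 2.13 in replicate 1 and 2.40 in replicate 2 taken alone. No test was made, since genes are not replicates. It turned to -11.4 points, with the synaptic and signalling genes higher, when the 17 members whose windows hold a start of another gene were left out. That left 13 chromatin regulators, among them Kdm6b without a mean percentile, and 5 synaptic and signalling genes. Those left out of the second class were Cntnap2, Tsc2, Ank2 and Ctnnb1, at mean percentiles of 47.8, 62.3, 85.2 and 92.2, so the sign rests on few genes. Within the second class the signalling genes had a median of 92.2 and the synaptic group 76.4. Their median spans were 59.9 kb and 589 kb. Over all genes with an open promoter the median percentile was 86.7 at spans up to 50 kb. It was 83.2 at 50 to 200 kb and 70.9 over 200 kb. The part of length in these ranks was not tested. Lists of other disorder genes, also chosen by name, gave open promoters at 40 of 40 chromatin genes, 33 of 40 synaptic and channel genes and 30 of 30 signalling genes. Their median percentiles were 89.9, 77.8 and 90.2.

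The ranks of the members were similar in both libraries. Over the 37 members the percentiles had a Pearson r of 0.939 and a Spearman rho of 0.954, across genes that share the same 2 libraries and are not independent replicates. In 28 members the libraries lay within 5 points of each other. Over all 12071 genes with an open promoter, rho was 0.973 and the median gap 2.12 points.

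Many members have several annotated starts, and starts that lie close together fall in the same promoter window. Of 174 separate promoter windows, 47 held a peak in both libraries. Which starts within a window were open was not measured. A peak lay at the first GENCODE start in both libraries for 34 members, against 50.7% of all genes. In 8 members the strongest promoter peak was over 1 kb from the first start in both libraries, Chd2, Phf21a, Ank2 and Ctnnb1 among them. In 7 members at least 2 windows were occupied in both libraries. The counts of windows and these counts of 8 and 7 members were not made over all genes, so they have no background.

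The strongest promoter peaks also differed in base composition. In 300 bp around the strongest promoter peak, the median GC content was 72.2% in chromatin regulators, 63.0% in synaptic and signalling genes and 65.0% in all genes. The ratio of observed to expected CpG was over 0.6 in 21 of 22 chromatin regulators and 6 of 9 synaptic and signalling genes, against 83.7% of all genes. The synaptic genes Dscam, Ank2 and Cntnap2 had the lowest ratios of all members, 0.242, 0.366 and 0.542. The contrast can be read in the printed sequences, where CG pairs are frequent in the Kmt2c peak and rare in the Dscam peak. These ratios describe the strongest peak and not the first start. The Dscam peak lay 889 bp from any annotated start, and the Ank2 peak lay 90.3 kb inside the gene. The composition of the weaker Dscam peak that covers the start in replicate 1, of density 1.42, was not measured. The part of base composition in the densities was not tested.

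The SP/KLF consensus GGGGCGGGG, searched on both strands, lay in a shared promoter footprint of 19 of 38 members and 24.2% of all genes with such a footprint. It was found in 13 of 23 chromatin regulators and in 1 of 9 synaptic and signalling genes, Ctnnb1. Members had a median of 8 shared promoter footprints and all genes 2, so a member had more chances of a match. Counted per footprint the shares were 8.28% and 6.56%. The CRE consensus TGACGTCA, bound by the CREB family, lay in footprints of Chd2, Nf1 and Hnrnpu, 1.91% of member footprints and 1.01% of all. The 6 member footprints with this match are 3 sites, each covered by 2 overlapping footprints. The ETS consensus CCGGAAG was found in 7 members, with 2.55% of footprints against 3.02%. In Hnrnpu it overlaps the CRE match, as printed above. The NRF1 consensus GCATGCGC was found in Kmt2c and Nf1, at 0.955% against 1.47% of footprints. A match describes letters in a window and is not a measured binding site.

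**Figure D3:**
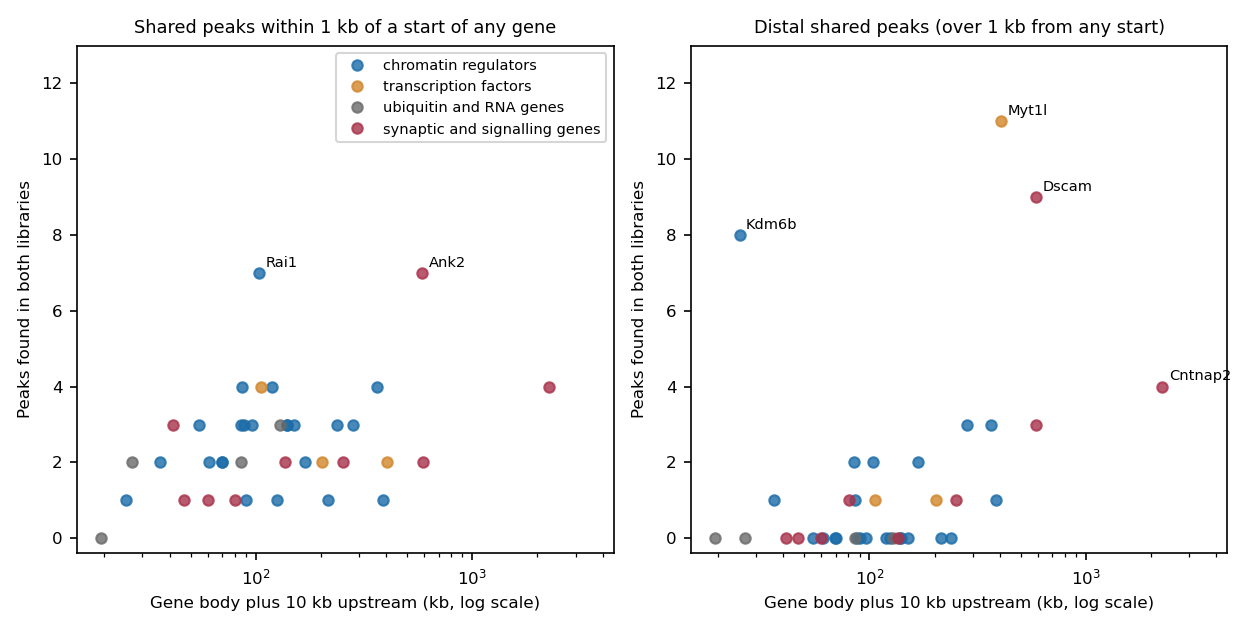
Shared peaks of each member against the length of its span (log scale), within 1 kb of an annotated start of any gene (left) and distal (right), coloured by class. Promoter-proximal counts stay at 7 or below, while Myt1l with 11, Dscam with 9 and Kdm6b with 8 distal shared peaks stand above the other members.

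At least 1 distal shared peak was found at 17 members, and 20.9% of all genes had one. Length bears on this count. Among genes with a span over 200 kb, 74.3% had one, against 9 of 11 such members. At 50 to 200 kb the share of all genes was 37.8%, and 6 of 22 members (27.3%) had one. Up to 50 kb it was 11.9%, against 2 of 6 members. The 17 comprised 9 of 23 chromatin regulators, 3 of 3 transcription factors and 5 of 9 synaptic and signalling genes, the latter being Nf1 and all 4 genes of the synaptic group. Of the 54 distal shared peaks, 42 lay in introns, 4 in exons and 8 upstream of the gene. Their median percentile was 53.8 in replicate 1 and 65.0 in replicate 2. All promoter peaks of the members had 59.5 and 63.4, but that set also holds peaks that are not shared, so the sets are not alike. Over the whole lists, shared or not, peaks over 1 kb from any start had 36.6 and 37.9. Those within 1 kb had 67.5 and 68.3. Over the whole span, chromatin regulators had a median of 0.285 shared peaks per 10 kb and synaptic and signalling genes 0.170, beside 0.208 for all genes. Their median spans were 104 kb and 136 kb, and the order of the classes turned with the looser and the larger read-derived list.

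Myt1l had the most distal shared peaks, 11, of which 10 lay in introns. The strongest, 344 kb into the gene at chr12:29872521-29872720, had densities of 6.22 and 5.51. It was stronger than the Myt1l promoter peak in both libraries and 20973 bp from any annotated start. Dscam had 9 distal shared peaks, scattered from 4.77 to 497 kb into the gene, at percentiles of 22.4 to 54.4 in replicate 1. Its strongest, chr16:97127441-97127660, had densities of 1.60 and 1.34, close to its promoter. Cntnap2 had 4, all between 1645 and 1954 kb into the gene. The strongest of these, chr6:47013641-47013800, had densities of 1.40 and 1.23, slightly above the Cntnap2 promoter. Arid1b had 3, and the strongest in replicate 1, chr17:5189761-5190100, had 4.93 and 2.71, also above its promoter in both libraries. Ank2 and Phf21a had 3 each, at percentiles of 65.3 and lower in replicate 1.

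Distal sequences of 4 long members are shown as examples of open DNA far from an annotated start. In the peaks the capitals mark shared footprints, and in the other sequences motif matches.
Myt1l distal peak, chr12:29872521-29872720, plus strand: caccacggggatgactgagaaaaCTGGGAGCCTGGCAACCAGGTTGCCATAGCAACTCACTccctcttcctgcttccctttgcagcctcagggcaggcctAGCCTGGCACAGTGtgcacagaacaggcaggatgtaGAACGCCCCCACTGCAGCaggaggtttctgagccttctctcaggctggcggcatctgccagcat
Dscam distal peak, chr16:97127441-97127660, minus strand: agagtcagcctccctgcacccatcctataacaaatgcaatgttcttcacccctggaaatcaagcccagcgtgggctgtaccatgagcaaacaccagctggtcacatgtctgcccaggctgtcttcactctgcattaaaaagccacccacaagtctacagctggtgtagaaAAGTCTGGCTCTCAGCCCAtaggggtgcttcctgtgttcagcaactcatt
Cntnap2 distal peak, chr6:47013641-47013800, plus strand: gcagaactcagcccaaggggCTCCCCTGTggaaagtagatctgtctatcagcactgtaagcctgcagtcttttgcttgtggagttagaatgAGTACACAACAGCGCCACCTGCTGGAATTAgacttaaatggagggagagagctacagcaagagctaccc
Cntnap2 distal footprint with E-box matches, chr6:46704710-46704753, plus strand: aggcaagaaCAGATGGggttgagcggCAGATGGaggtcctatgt
Arid1b distal footprint with an RFX match, chr17:5139109-5139156, plus strand: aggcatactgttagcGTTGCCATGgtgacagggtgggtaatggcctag
Counted per distal footprint, matches to the E-box, NFI and RFX motifs were no more frequent in the members than in all genes. Counted per gene with a distal shared footprint, the shares were 18.2% against 9.9%, 27.3% against 16.4% and 4.55% against 3.13%. The E-box CAGATGG, bound by neuronal basic helix-loop-helix factors, was found in 3.11% of member footprints and 3.55% of all. It lay in footprints of Tcf7l2, Ank2, Cntnap2 and Katnal2. The NFI half-site TTGGCA was found in 5.59% against 6.26%, and the RFX consensus GTTGCCATG in 0.621% against 1.05%. Other motifs were higher per footprint in the members, on few matches, among them NRF1 with 2 of 161 footprints, 1.24% against 0.509%, and SP/KLF with 3, 1.86% against 1.22%.

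**Figure D4:**
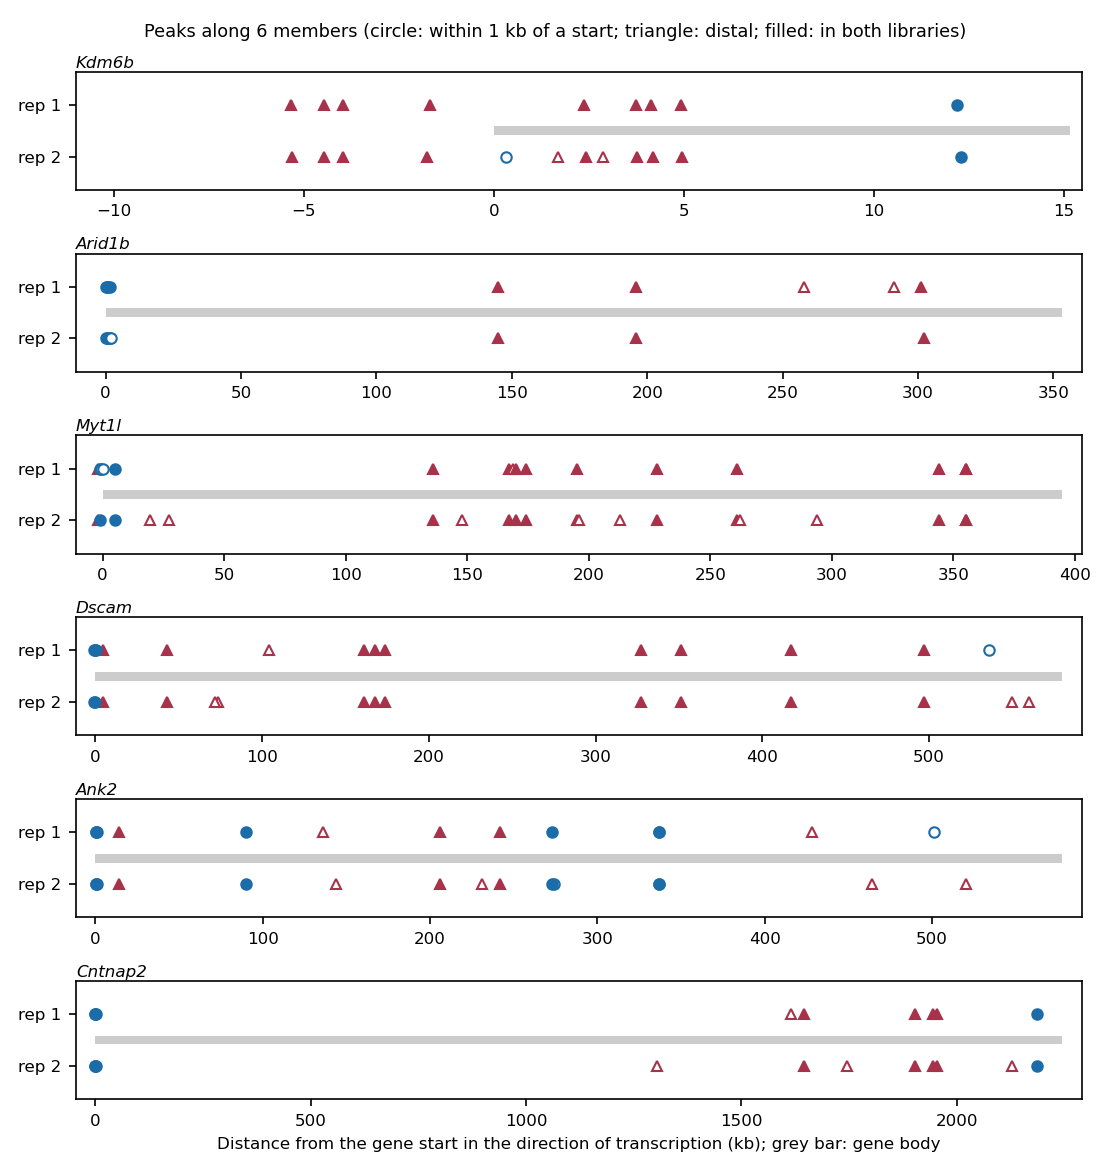
Peaks of both libraries along 6 members, by distance in kb from the gene start; circles lie within 1 kb of an annotated start of any gene, triangles are distal, filled symbols are found in both libraries and the grey bar is the gene body. Distal sites of Myt1l and Dscam are spread along the gene, those of Cntnap2 lie between 1645 and 1954 kb, and those of Kdm6b flank its start.

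Peaks in member spans overlapped between the libraries at shares close to those of the whole lists. Replicate 1 had 186 peaks in these spans, of which 82.3% overlapped a replicate 2 peak, and the share over the whole list was 80.1%. Replicate 2 had 215, of which 72.6% overlapped a replicate 1 peak, against 69.6%. By place, 84.7% of the 111 promoter peaks and 75.9% of the 58 intronic peaks of replicate 1 were shared.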

How the data were processed

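Interval lists deposited for 2 DNase-seq libraries of frontal cortex were analysed, made per library on mm10. For the aligner and the callers, settings and versions were not given in the sources used. Per the text lists deposited with the samples, narrowPeak lists and footprints came from filtered alignments, and the read-derived peaks and hotspots from a separate run. Peak strength is the signal deposited by the authors, a depth-normalised density. Hotspots carry −log10 FDR, per the file headers. The deposited footprint lists hold the p-value threshold 0.01 in every line, and the deposited per-base tracks hold an FDR, listed under 0.05. One deposited pair of footprint lists gives positions only.

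From these, peaks were intersected with GENCODE vM21 starts and spans, and motifs with footprints (10 bp margin), with Python 3.11.15, numpy 2.4.6, pandas 2.3.3, samtools 1.23.1 and matplotlib 3.10.9. Transcript starts of the comparison annotation came from RefSeq (GRCm38.p6). Absolute depth is not given, so no counting interval is printed. The steps were tested on simulated data.

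Named genes: every member, with most detail for those with the strongest promoters, the most distal shared peaks or no promoter peak in both libraries. Members and lists were chosen with earlier results of these data known. No p-values were computed, because genes are not replicates. Alternatives were list threshold, run, list size, window, span, overlap, annotation and leaving out a replicate. Allele bias in mapping, possible in F1 animals, was not examined.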

Additional observations from a re-analysis of the deposited data

How the results depend on the processing

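The counts of members with a promoter peak, a promoter footprint or a distal shared peak were 37, 38 and 17. Over all 39 members they ranged from 35 to 38, 37 to 38 and 14 to 24 under the alternatives run. They were 20, 21 and 11 among the 22 members whose windows hold no start of another gene. The stricter list also lost Zmynd11 and Tsc2. The difference in median promoter percentile between chromatin regulators and synaptic and signalling genes, 2.67 points, was 1.34 with the stricter and 1.25 with the looser list, 2.39 and 1.79 with the smaller and larger read-derived lists, 2.91 at equal list size and 1.68 and 2.31 with windows of 500 and 2500 bp. It ranged from 2.13 to 2.40 without one replicate, and was -11.4 among those 22 members, with medians of 81.2 and 92.6. The class difference in shared peaks per 10 kb, 0.115, turned to -0.0105 with the looser and -0.0118 with the larger read-derived list. It was 0.0742 with the smaller read-derived list, 0.0721 at 50% reciprocal overlap, 0.0257 for the gene body alone, 0.150 with 50 kb on each side, 0.162 among the 22 members, and 0.0736 to 0.106 without one replicate. The members' median of 0.232 was 0.340, 0.328 and 0.356 with the looser, smaller and larger read-derived lists, 0.178 at 50% overlap, 0.189 for the gene body, 0.292 with 50 kb on each side, and 0.249 to 0.295 without one replicate. The cause of these shifts was not tested. Weak peaks are limited by depth, which differed 1.64 times between the libraries. No paired analysis was possible because the series holds 1 group.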

Other observations

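Some members differed between the libraries in ways that their promoter percentiles do not show. Kdm5b had 3 promoter footprints in replicate 1 and 15 in replicate 2, and Kdm6b had 1 and 9. Kmt5b had 2 promoter peaks in replicate 1 and 5 in replicate 2, in the main, looser and both read-derived lists. Phf21a had 3 and 6 in the main lists and 8 and 7 in the looser ones.

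Kdm6b held 33 shared footprints in DNA over 1 kb from any GENCODE start, more than Myt1l with 28 and Dscam with 17, in a span of 25.2 kb against 405 kb and 590 kb. Its promoter windows held 1 shared footprint. The AP-1 consensus TGANTCA and the MEF2 consensus TAAAAATAG were found in none of the 161 distal member footprints, against 0.831% and 0.0779% of all distal footprints. The ETS, CRE, EGR, ZBTB33 and ZNF143 motifs had no match there either. With such low shares, few or no matches in 161 footprints are what the background gives, so these absences are no result about the members. The CTCF core AGGGGGCGC was found in 2 of the distal member footprints, in Adnp and Kmt2a, or 1.24% against 1.74%. For every motif only the stated letters were searched, on both strands, so sites with other letters are not counted.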
